A study of Saccharomyces cerevisiae with 6 samples.

Results

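Messenger RNA levels of the enzymes of central sugar metabolism were examined in budding yeast mutants of the Mot1 and TBP system. The set held 32 genes of glycolysis, alcoholic fermentation, gluconeogenesis, the glyoxylate cycle and the glycerol branch, chosen by gene name from the 6256 gene probes of a 2-colour oligonucleotide array. Each gene had 1 probe. The genes were put into 4 classes by their textbook roles: 14 major enzymes of cells growing on glucose, 8 glucose-repressed enzymes, 6 minor isoenzymes and 4 branch enzymes.

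Yeast breaks glucose down to pyruvate by glycolysis and, while glucose is plentiful, ferments the pyruvate to ethanol. Several steps are encoded by gene duplicates, of which one usually carries most of the flux on glucose and another is kept low until glucose runs out. Growth on ethanol or acetate needs the enzymes that bypass the irreversible steps: gluconeogenesis runs from oxaloacetate back to hexose phosphate, and the glyoxylate cycle makes oxaloacetate precursors from acetyl-CoA. Mot1 uses ATP to strip TBP, the TATA-binding protein encoded by SPT15, off DNA, and the major glycolytic genes are among the most highly transcribed genes of the cell.

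The strains shared the parent AY138 and differed in a plasmid. WT MOT1+ carried pAV20 and the mot1-14 mutant carried pMOT244, and the bypass strains, which live on a TBP variant without wild-type MOT1, carried pTBP-Y185C or pTBP-F207L. The labels mark all 4 strains as post-FOA, FOA being an agent that selects against cells holding a URA3 plasmid, and give no further chromosomal genotype. Cultures were grown in YPD, a glucose-rich medium, at 30 °C to an OD600 near 1.0. Each of the 3 mutants was compared with WT on 2 arrays of opposite dye orientation, so that the mutant was labelled with Cy5 on array 1 and with Cy3 on array 2. Values below are log2 ratios of mutant over WT unless another quantity is named, and a gene passed when its adjusted p was under 0.05 in limma, with adjustment over 6234 genes. Whether the 2 arrays of a mutant used separate cultures is not in the labels, so the spread between arrays may be technical. The fit held a dye term for each gene, which takes a difference between array 1 and array 2 that the mutants share out of the error. The p-values therefore measure only the spread left after that term, combined with limma's prior. PYC2 in TBP-F207L, for example, passed with arrays at 0.08 and -0.41 and an SE of 0.04. Of 192 gene values, against WT or between mutants, 51 lost their call without the dye term and 0 gained one. WT RNA served as 1 control sample in every comparison, which leaves the spread of WT itself out of the tests. Both arrays of a mutant lay on a slide of their own, so mutant and slide cannot be told apart.

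Median signal over local background was 8.05 to 22.7 in the red channel of the 6 arrays and 6.74 to 10.8 in the green, and the paired arrays correlated across genes at r = 0.93, 0.96 and 0.94. All 32 enzyme genes were well above background in both channels on all 6 arrays. The red channel was saturated on some arrays for FBA1, TPI1, PGK1, GPM1 and PDC1, all of them major enzymes. MOT1 RNA was at 2.17, -3.51 and -2.58 for mot1-14, TBP-Y185C and TBP-F207L, the last with arrays as far apart as -1.74 and -3.41. SPT15 RNA was at -0.36, 4.08 and 3.63, so in the bypass strains the substitution in TBP and the raised TBP mRNA level cannot be told apart. In mot1-14 the mutant allele and the raised MOT1 mRNA level cannot be told apart either. Of 20 general stress genes, 20, 20 and 19 rose in mot1-14, TBP-Y185C and TBP-F207L and 0 fell, where 37.2%, 41% and 40.2% of all genes rose, with medians of 1.66, 1.72 and 1.36 and ranges of 0.46 to 2.66, 0.27 to 3.65 and -0.10 to 3.40. The part of that rise in the results below was not tested.

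In mot1-14, 16 of the 32 enzyme genes rose, 10 fell and 6 did not pass. That is a share near the background, since 72.1% of all genes tested passed in this comparison, 37.2% upward and 34.9% downward. Changes of at least 2-fold were fewer: 6 of the 32 rose by that much (HXK1, GLK1, ACS1, TDH1, GPM2 and GPD1) and 0 fell, against 4.44% and 0.594% of all genes (5.04% in either direction). In TBP-Y185C, 16 rose, 11 fell and 5 did not pass, against 79.7% of all genes passing (41% upward, 38.8% downward). There, 5 rose at least 2-fold (HXK1, GLK1, GPM2, PYC1 and GPD1) and 0 fell, against 6.42% and 1.96% of all genes (8.37% in either direction).

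TBP-F207L differed in its balance. In it 12 of the 32 genes rose, 19 fell and 1 (PDC6) did not pass, against 79% of all genes passing (40.2% upward, 38.8% downward). The 2-fold changes were 4 rises (GLK1, GPM2, PYC1 and GPD1) and 4 falls (PFK1, ENO1, ENO2 and CDC19), against 4.97% and 2.34% of all genes (7.31% in either direction). The median over the 32 genes was 0.17, 0.12 and -0.22 for mot1-14, TBP-Y185C and TBP-F207L, where the median over all genes tested lay within 0.01 of 0.

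**Figure D1:**
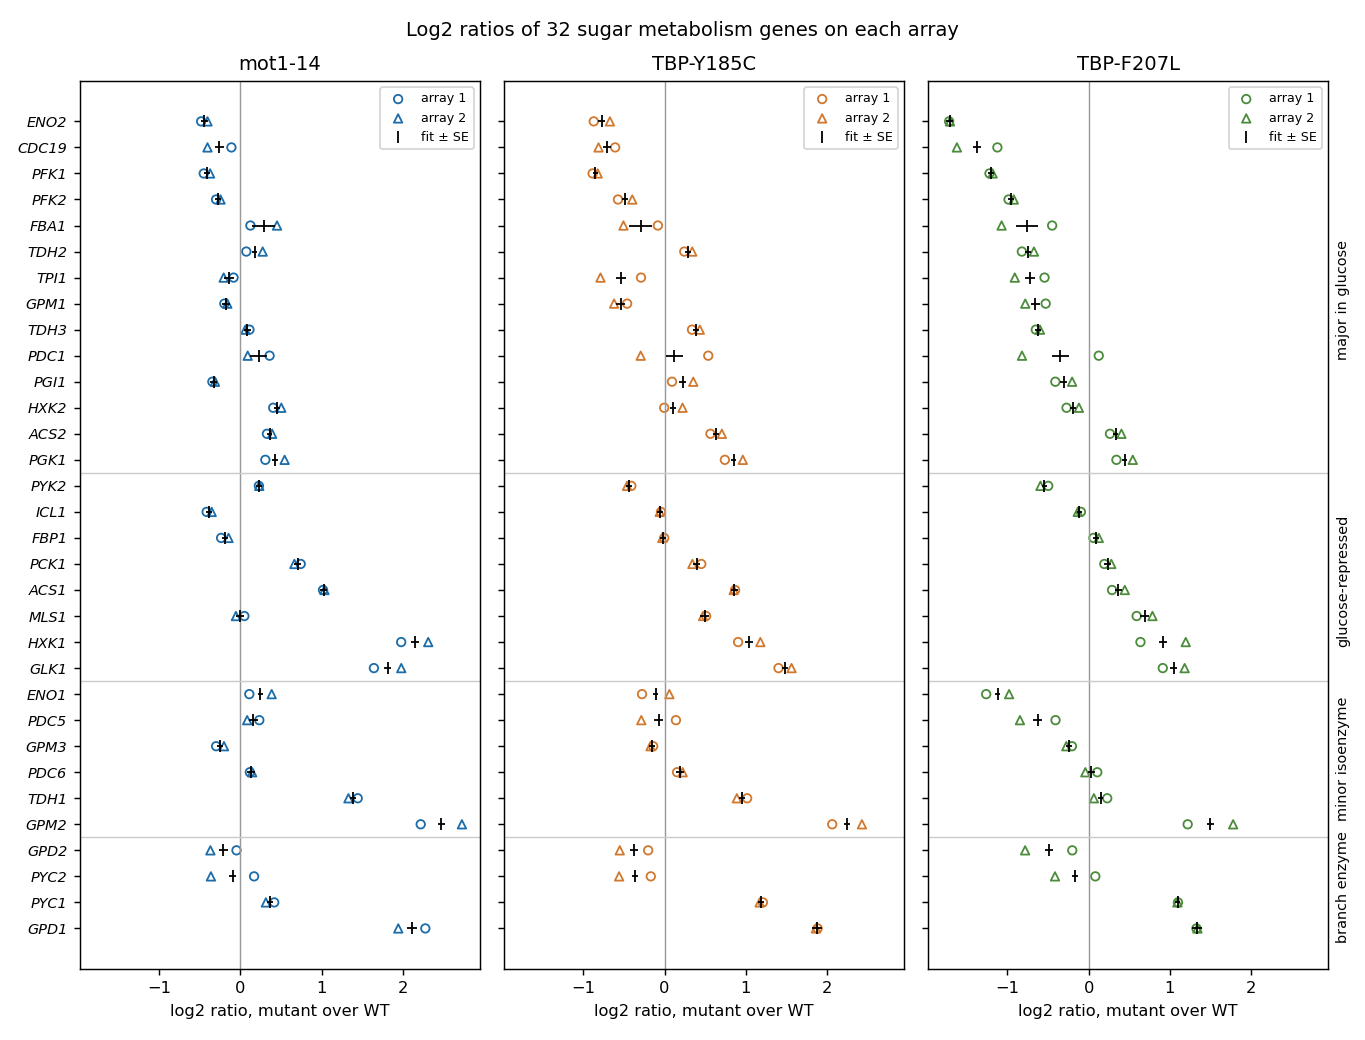
Log2 ratios (mutant over WT, x axis) of the 32 enzyme genes (rows, grouped by class) in the 3 mutants; open circles are array 1, open triangles array 2, and bars the limma estimate with its SE. Most major enzymes lie left of 0 in TBP-F207L, whereas GPM2, GPD1, HXK1 and GLK1 lie right of 0 on every array.

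Glucose enters glycolysis by phosphorylation, for which yeast has the hexokinases HXK1 and HXK2 and the glucokinase GLK1. HXK2 is the main enzyme on glucose and also acts in glucose repression, while HXK1 and GLK1 are repressed by glucose. HXK1 (YFR053C) was at 1.98 and 2.31 on the mot1-14 arrays, 0.91 and 1.18 on those of TBP-Y185C, and 0.64 and 1.20 on those of TBP-F207L. All 6 arrays were positive, and the mot1-14 arrays stood above the other 4. The estimates were 2.14 (SE 0.05, adjusted p = 2.44e-07) in mot1-14, a 4.42-fold rise, and 1.04 and 0.92 in the bypass strains (SE 0.05 each, adjusted p = 1.99e-06 and 4.02e-06).

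GLK1 (YCL040W) was at 1.64 and 1.98 on the mot1-14 arrays, 1.40 and 1.56 on those of TBP-Y185C, and 0.91 and 1.18 on those of TBP-F207L. It was raised on every array and the ranges of the 3 mutants did not overlap, with estimates of 1.81, 1.48 and 1.05 (SE 0.04 each, largest adjusted p = 7.77e-07). HXK2 (YGL253W) behaved differently, at 0.40 and 0.50 on the mot1-14 arrays, -0.00 and 0.22 on those of TBP-Y185C, and -0.27 and -0.12 on those of TBP-F207L. It rose in mot1-14 (0.45, adjusted p = 2.86e-05) and fell in TBP-F207L (-0.20, adjusted p = 0.0019), and the small rise in TBP-Y185C (0.11, adjusted p = 0.0271) became -0.06 with median centring in place of loess.

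Within an array, the HXK1 ratio exceeded the HXK2 ratio by a log2 difference of 1.57 and 1.81 for mot1-14, 0.91 and 0.96 for TBP-Y185C and 0.91 and 1.31 for TBP-F207L. GLK1 exceeded HXK2 by 1.24 to 1.48, 1.34 to 1.41 and 1.18 to 1.30 in the same order. Both glucose-repressed sugar kinases thus shifted upward against HXK2 on 6 of 6 arrays.

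The following steps convert glucose 6-phosphate to fructose 1,6-bisphosphate. Phosphoglucose isomerase has a sole gene, PGI1 (YBR196C), which was at -0.35 and -0.31 on the mot1-14 arrays, 0.09 and 0.35 on those of TBP-Y185C, and -0.41 and -0.20 on those of TBP-F207L. Only the TBP-Y185C arrays were positive, and the estimates were -0.33, 0.22 and -0.31 (adjusted p = 0.000467, 0.00298 and 0.000594). PFK1 (YGR240C) and PFK2 (YMR205C) encode the alpha and beta subunits of phosphofructokinase, the committed step of glycolysis.

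PFK1 was at -0.45 and -0.37 on the mot1-14 arrays, -0.88 and -0.82 on those of TBP-Y185C, and -1.22 and -1.18 on those of TBP-F207L. PFK2 was at -0.30 and -0.25, -0.57 and -0.40, and -0.98 and -0.92. Both subunit genes were below 0 on every array, lowest in TBP-F207L and nearest to 0 in mot1-14, with no overlap between mutants. The PFK1 estimates were -0.41, -0.85 and -1.20 (SE 0.03 each, adjusted p = 2.58e-05, 6.55e-07 and 2.5e-07), the last a 2.3-fold fall, and those of PFK2 were -0.27, -0.48 and -0.95. PFK1 lay below PFK2 on all 6 arrays, by 0.13 to 0.42 on the log2 scale.

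FBP1 (YLR377C) encodes fructose-1,6-bisphosphatase, which runs the phosphofructokinase step backward in gluconeogenesis and is strongly repressed by glucose. Its ratios stayed close to 0, at -0.24 and -0.15 on the mot1-14 arrays, -0.00 and -0.03 on those of TBP-Y185C, and 0.06 and 0.13 on those of TBP-F207L. It fell in mot1-14 (-0.19, adjusted p = 0.00219), did not pass in TBP-Y185C (-0.02, adjusted p = 0.709), and its rise in TBP-F207L of 0.09 was close to the threshold (adjusted p = 0.0474). FBP1 spots were dim, with 68.1 to 125 units of WT signal above background, and the mot1-14 value ran from -0.33 to -0.16 over the settings tried. Against PFK1 on the same array FBP1 was higher by 0.21 to 0.23 in mot1-14, 0.79 to 0.88 in TBP-Y185C and 1.28 to 1.31 in TBP-F207L. Most of that widening came from PFK1, whose ratio moved from -0.41 to -1.20 across the mutants while that of FBP1 moved from -0.19 to 0.09.

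Aldolase (FBA1, YKL060C) and triose phosphate isomerase (TPI1, YDR050C) each have a sole gene, and both probes reached saturation in the red channel. FBA1 was at 0.12 and 0.45 on the mot1-14 arrays, -0.08 and -0.50 on those of TBP-Y185C, and -0.45 and -1.07 on those of TBP-F207L. The 2 arrays of a mutant had the same sign but differed widely in size, and only the fall in TBP-F207L passed (-0.76, SE 0.14, adjusted p = 0.00177), at -0.47 without TBP-F207L array 2. TPI1 was at -0.09 and -0.21, -0.29 and -0.79, and -0.54 and -0.91, negative on all arrays. It fell in TBP-Y185C and TBP-F207L by 0.54 and 0.72 on the log2 scale (adjusted p = 0.000128 and 2.83e-05) and stood at -0.15 in mot1-14 (adjusted p = 0.066). With saturated spots left out, FBA1 had no value in mot1-14 and TPI1 passed there at -0.30.

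Glyceraldehyde-3-phosphate dehydrogenase has the isoenzyme genes TDH1, TDH2 and TDH3, the last giving most of the enzyme on glucose and TDH1 being associated with stationary phase and stress. TDH3 (YGR192C) was at 0.11 and 0.06 on the mot1-14 arrays, 0.34 and 0.43 on those of TBP-Y185C, and -0.65 and -0.60 on those of TBP-F207L. TDH2 (YJR009C) was at 0.07 and 0.27, 0.24 and 0.34, and -0.82 and -0.67. These major genes were at or above 0 in mot1-14 and TBP-Y185C and below 0 on both TBP-F207L arrays.

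TDH2 rose in mot1-14 and TBP-Y185C (0.17 and 0.29) and fell in TBP-F207L (-0.75, adjusted p = 1.75e-06). For TDH3 the rise of 0.39 in TBP-Y185C and the fall of 0.62 on the log2 scale in TBP-F207L passed (adjusted p = 5.95e-05 and 5.74e-06), and 0.09 in mot1-14 did not (adjusted p = 0.0787). TDH1 (YJL052W) was at 1.44 and 1.33 on the mot1-14 arrays, 1.02 and 0.89 on those of TBP-Y185C, and 0.23 and 0.07 on those of TBP-F207L. All arrays were positive, with separate ranges that stepped down from mot1-14 to TBP-F207L.

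TDH1 rose by 2.61-fold in mot1-14 (1.39, adjusted p = 2.31e-07) and by 1.94-fold in TBP-Y185C (0.95, adjusted p = 4.62e-07), and its 0.15 in TBP-F207L (adjusted p = 0.0046) turned to -0.51 with median centring. Relative to TDH3 on the same array, TDH1 was higher by 1.27 to 1.33, 0.46 to 0.68 and 0.66 to 0.88 on the log2 scale in the 3 mutants. The TDH2 minus TDH3 difference stayed between -0.17 and 0.21. In WT the TDH1 probe gave 11258 to 35746 units above background, TDH3 3909 to 7196 and TDH2 3786 to 6843. That order of signal is unlike the order of their stated roles. The TDH coding sequences are similar, so their probes may share signal, and the same holds for the enolase, pyruvate decarboxylase, hexokinase and pyruvate carboxylase duplicates; probe sequences were not analysed here.

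PGK1 (YCR012W), the sole gene for phosphoglycerate kinase, rose in each mutant with loess scaling. It was at 0.31 and 0.54 on the mot1-14 arrays, 0.74 and 0.96 on those of TBP-Y185C, and 0.34 and 0.54 on those of TBP-F207L, all positive. The estimates of 0.42, 0.85 and 0.44 passed (SE 0.03 each, adjusted p = 2.21e-05, 6.53e-07 and 1.41e-05), but median centring gave -0.32 in TBP-F207L.

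Phosphoglycerate mutase activity comes from GPM1, while GPM2 and GPM3 are homologues with little or no such activity in the cell. GPM1 (YKL152C) was at -0.20 and -0.16 on the mot1-14 arrays, -0.46 and -0.62 on those of TBP-Y185C, and -0.53 and -0.78 on those of TBP-F207L. GPM2 (YDL021W) was at 2.22 and 2.72, 2.06 and 2.43, and 1.22 and 1.78. GPM1 was negative and GPM2 positive on every array, and GPM2 had the largest rise of the 32 genes in each mutant.

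GPM2 rose by 5.54-fold, 4.74-fold and 2.83-fold in the respective mutants (SE 0.04 each on the log2 scale, largest adjusted p = 2.64e-07). Its WT spots were dim, at 75.5 to 133 units above background, and in mot1-14 the log2 ratio of 2.47 was 3.09 in the deposited log ratios, and also higher with a normexp offset of 0. GPM1 fell by 0.18, 0.54 and 0.65 on the log2 scale (adjusted p = 0.0156, 4.9e-05 and 1.98e-05), with no value left in any mutant once saturated spots were dropped. GPM3 (YOL056W) was at -0.30 and -0.20, -0.14 and -0.17, and -0.20 and -0.27, and fell slightly in each mutant (-0.25, -0.16 and -0.24). The GPM2 minus GPM1 difference was positive on 6 of 6 arrays, but GPM1 was saturated in WT on array 2 of each mutant and in mot1-14 on array 1, so its size is not exact there. On the arrays without saturation it was 2.52 (TBP-Y185C array 1) and 1.75 (TBP-F207L array 1).

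Enolase is encoded by ENO2, the glucose-induced form, and ENO1, the more constant form. ENO2 (YHR174W) was at -0.48 and -0.41 on the mot1-14 arrays, -0.87 and -0.67 on those of TBP-Y185C, and -1.72 and -1.70 on those of TBP-F207L. ENO1 (YGR254W) was at 0.11 and 0.38, -0.28 and 0.06, and -1.26 and -0.98. ENO2 was below 0 everywhere, and ENO1 changed from above 0 in mot1-14 to far below 0 in TBP-F207L.

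The fall of ENO2 in TBP-F207L, 3.27-fold (-1.71, SE 0.04, adjusted p = 1.82e-07), was the largest of the 32 genes. In mot1-14 and TBP-Y185C its estimates were -0.44 and -0.77. ENO1 rose in mot1-14 (0.25, adjusted p = 0.000413), fell a little in TBP-Y185C (-0.11, adjusted p = 0.0195) and fell 2.17-fold in TBP-F207L (-1.12, adjusted p = 3.17e-07). Despite these different levels, ENO1 exceeded ENO2 by a similar log2 difference on all arrays: 0.59 and 0.79, 0.59 and 0.73, and 0.46 and 0.73.

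Pyruvate kinase makes pyruvate, mainly through CDC19, with PYK2 as the glucose-repressed duplicate. CDC19 (YAL038W) was at -0.11 and -0.41 on the mot1-14 arrays, -0.61 and -0.81 on those of TBP-Y185C, and -1.12 and -1.62 on those of TBP-F207L. PYK2 (YOR347C) was at 0.23 and 0.23, -0.41 and -0.46, and -0.50 and -0.59. CDC19 was negative on every array with separate ranges per mutant, and PYK2 was positive in mot1-14 alone.

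CDC19 fell by 0.26, 0.71 and 1.37 on the log2 scale (adjusted p = 0.00312, 1.27e-05 and 7.36e-07), the last being 2.59-fold. PYK2 rose in mot1-14 (0.23, adjusted p = 0.000768) and fell in the bypass strains (-0.43 and -0.54, adjusted p = 2.02e-05 and 7.36e-06). PYK2 was thus the only one of the 8 glucose-repressed genes below -0.2 in either bypass strain, yet it exceeded CDC19 on 6 of 6 arrays, by 0.20 to 1.03 on the log2 scale.

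Pyruvate decarboxylase, which commits pyruvate to ethanol, has the main gene PDC1 and the minor genes PDC5 and PDC6. PDC1 (YLR044C) was at 0.36 and 0.09 on the mot1-14 arrays, 0.54 and -0.29 on those of TBP-Y185C, and 0.12 and -0.82 on those of TBP-F207L. PDC5 (YLR134W) was at 0.23 and 0.08, 0.14 and -0.29, and -0.41 and -0.84, and PDC6 (YGR087C) stayed between -0.04 and 0.22. Array 2 was below array 1 for PDC1 and PDC5 in every mutant, and the PDC1 arrays of both bypass strains disagreed in sign.

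PDC1 fell in TBP-F207L (-0.35, SE 0.10, adjusted p = 0.0169) and did not pass in mot1-14 (0.22, adjusted p = 0.0892) or TBP-Y185C (0.12, adjusted p = 0.301). PDC5 rose slightly in mot1-14 (0.16, adjusted p = 0.0348), stood at -0.07 in TBP-Y185C and fell in TBP-F207L (-0.63, adjusted p = 3.48e-05). PDC6 rose in mot1-14 and TBP-Y185C (0.13 and 0.19) and was at 0.03 in TBP-F207L (adjusted p = 0.511). PDC6 spots were dim, with 37.8 to 107 units of WT signal above background, and the TBP-Y185C value reached 0.43 over the settings tried. No order among the 3 genes held over the arrays: PDC5 exceeded PDC1 on 1 of 6 arrays and PDC6 exceeded PDC1 on 3 of 6, with PDC1 saturated on both mot1-14 arrays and on TBP-Y185C array 1.

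Acetyl-CoA synthetase, which activates acetate, is encoded by ACS2 on glucose and by the glucose-repressed ACS1. ACS1 (YAL054C) was at 1.02 and 1.03 on the mot1-14 arrays, 0.87 and 0.85 on those of TBP-Y185C, and 0.29 and 0.45 on those of TBP-F207L. ACS2 (YLR153C) was at 0.33 and 0.39, 0.56 and 0.71, and 0.26 and 0.40. Both genes were above 0 on all arrays, ACS1 highest in mot1-14 and ACS2 highest in TBP-Y185C.

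ACS1 rose by 2.03-fold, 1.81-fold and 1.29-fold (1.02, 0.86 and 0.37, largest adjusted p = 0.000122), and ACS2 by 0.36, 0.64 and 0.33 on the log2 scale (largest adjusted p = 8.08e-05). The excess of ACS1 over ACS2 was 0.64 to 0.69 in mot1-14, 0.15 to 0.30 in TBP-Y185C and only 0.03 to 0.04 in TBP-F207L.

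Carbon returns toward sugar through pyruvate carboxylase, the glyoxylate cycle and phosphoenolpyruvate carboxykinase (PCK1). PCK1 (YKR097W), strongly repressed by glucose, was at 0.74 and 0.66 on the mot1-14 arrays, 0.45 and 0.34 on those of TBP-Y185C, and 0.19 and 0.28 on those of TBP-F207L. It rose in each (0.70, 0.40 and 0.24, adjusted p = 7.76e-06, 9.89e-05 and 0.00165), and against CDC19, the enzyme gene of the opposing glycolytic step, it was higher by 0.85 to 1.90 on the log2 scale over the 6 arrays. PCK1 spots were dim, with 72.0 to 121 units of WT signal above background, and the mot1-14 value reached 0.98 over the settings tried. The isocitrate lyase gene ICL1 (YER065C), which opens the glyoxylate cycle, was at -0.42 and -0.35, -0.04 and -0.06, and -0.09 and -0.13. ICL1 was below 0 on every array, falling in mot1-14 (-0.38, adjusted p = 5.33e-05) and slightly in TBP-F207L (-0.11, adjusted p = 0.0199), with -0.05 in TBP-Y185C (adjusted p = 0.21).

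MLS1 (YNL117W), encoding the malate synthase of the same cycle, was at 0.05 and -0.06 on the mot1-14 arrays, 0.51 and 0.47 on those of TBP-Y185C, and 0.59 and 0.79 on those of TBP-F207L. It was near 0 in mot1-14 (-0.00, adjusted p = 0.95) and rose in the bypass strains (0.49 and 0.69, adjusted p = 9.88e-05 and 1.84e-05). Its spots were dim, with 14.3 to 61.2 units of WT signal above background, and the deposited log ratios gave 1.79 and 1.92 for the bypass strains. ICL1 and MLS1, which act in sequence, were called in the same direction in none of the 3 mutants.

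Pyruvate carboxylase, which makes oxaloacetate from pyruvate, has the isoenzyme genes PYC1 and PYC2. PYC1 (YGL062W) was at 0.42 and 0.31 on the mot1-14 arrays, 1.21 and 1.17 on those of TBP-Y185C, and 1.10 and 1.09 on those of TBP-F207L. PYC2 (YBR218C) was at 0.17 and -0.36, -0.17 and -0.56, and 0.08 and -0.41. PYC1 was positive on all arrays with both bypass strains well above mot1-14, whereas PYC2 was lower on array 2 of each mutant.

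PYC1 rose by 1.29-fold, 2.28-fold and 2.14-fold (0.36, 1.19 and 1.10, SE 0.03 each, largest adjusted p = 6.67e-05), unlike the other genes with 2-fold rises, whose estimates were highest in mot1-14. PYC2 fell in TBP-Y185C and TBP-F207L (-0.36 and -0.17) and was at -0.10 in mot1-14 (adjusted p = 0.0506). The PYC1 minus PYC2 difference was 0.25 to 0.68 in mot1-14, 1.38 to 1.73 in TBP-Y185C and 1.02 to 1.51 in TBP-F207L.

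Glycerol-3-phosphate dehydrogenase diverts triose phosphate to glycerol, with GPD1 induced by osmotic stress and GPD2 serving redox balance without oxygen. GPD1 (YDL022W) was at 2.27 and 1.94 on the mot1-14 arrays, 1.88 and 1.86 on those of TBP-Y185C, and 1.33 and 1.34 on those of TBP-F207L. GPD2 (YOL059W) was at -0.05 and -0.37, -0.20 and -0.55, and -0.20 and -0.78. The duplicates were on opposite sides of 0 on every array.

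GPD1 rose by 4.31-fold, 3.66-fold and 2.52-fold (2.11, 1.87 and 1.33, SE 0.06 each, largest adjusted p = 1.55e-06), and GPD2 fell by 0.21, 0.38 and 0.49 on the log2 scale (largest adjusted p = 0.00727). Their difference was 2.31 to 2.32 in mot1-14, 2.08 to 2.41 in TBP-Y185C and 1.53 to 2.12 in TBP-F207L. GPD2 spots were dim, with 47 to 117 units of WT signal above background, and the TBP-F207L value reached -0.92 over the settings tried. GPD1 and GPM2 are next to each other in the gene order of the R64 assembly, and GPM3 and GPD2 lie 3 genes apart; the adjacent pair had the 2 highest estimates of the 32 genes in each bypass strain.

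**Figure D2:**
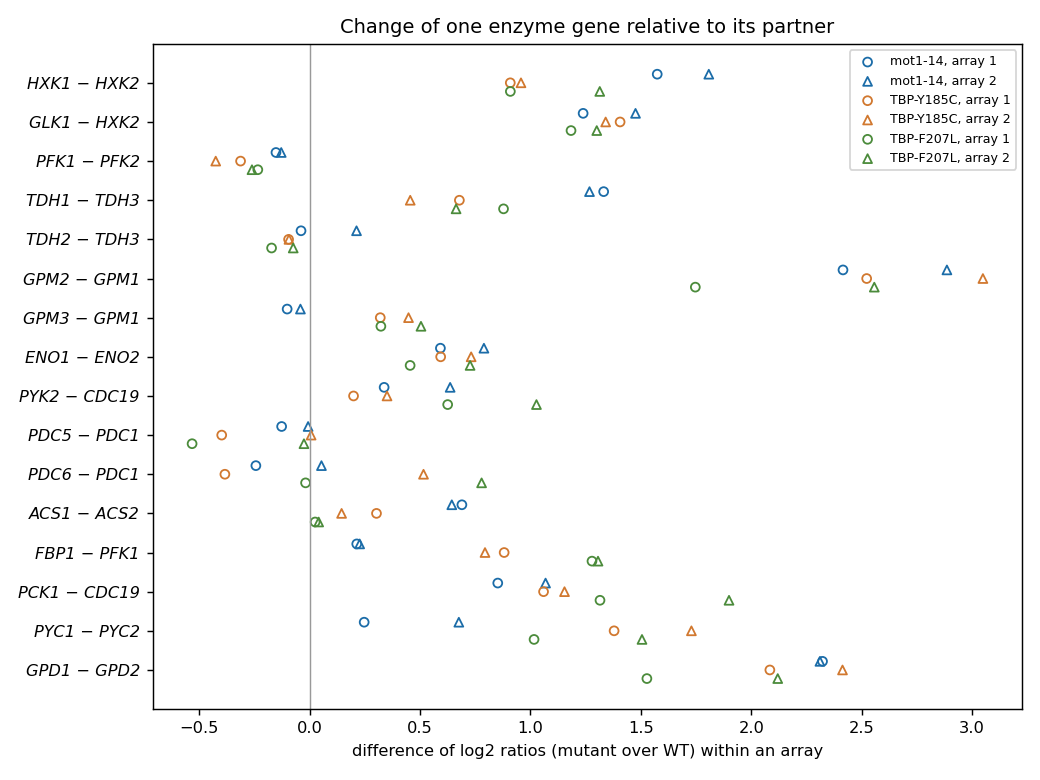
Difference of log2 ratios (mutant over WT, x axis) between the members of 16 enzyme pairs (rows), measured within each array; colours are mutants, circles array 1 and triangles array 2. ENO1 minus ENO2 stayed between 0.46 and 0.79 on all arrays, while ACS1 minus ACS2 ran from 0.69 in mot1-14 to 0.03 in TBP-F207L.

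Set side by side, the classes separated most in TBP-F207L. Of the 14 major enzymes, 4 rose and 6 fell in mot1-14, 6 rose and 6 fell in TBP-Y185C, and 2 rose (PGK1 and ACS2) and 12 fell in TBP-F207L. For a share of all genes tested these compare with 37.2%, 41% and 40.2% rising and 34.9%, 38.8% and 38.8% falling, so the 10 of 14 that passed in mot1-14 are near the background. The class medians were -0.03, -0.09 and -0.69, of which that of TBP-Y185C became 0.11 (7 rose and 6 fell) with saturated spots left out. Of the 8 glucose-repressed enzymes, 5 rose and 2 fell in mot1-14, 5 rose and 1 fell in TBP-Y185C, and 6 rose and 2 fell in TBP-F207L, with medians of 0.47, 0.45 and 0.30. The 6 minor isoenzymes had medians of 0.20, 0.06 and -0.10, and the 4 branch enzymes of 0.13, 0.41 and 0.47.

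The median of the glucose-repressed class exceeded that of the major class by 0.50, 0.54 and 0.99 for mot1-14, TBP-Y185C and TBP-F207L. By array the excess was 0.49 and 0.50, 0.52 and 0.75, and 0.78 and 1.16, always positive and largest in TBP-F207L. These are descriptions over chosen genes and carry no test. The classes also differed in signal. Among all gene probes, WT signal ranked at percentiles 88.0 to 100 for the major genes and 2.77 to 85.3 for the glucose-repressed genes. Class and signal strength therefore cannot be told apart in this excess. The classes overlapped: 4, 3 and 3 of the 8 glucose-repressed genes were above the highest major gene in the respective mutants, and 6, 7 and 8 of 8 were above the median of the major genes. The shares of all genes above these marks were not counted. The major median itself went from -0.03 and -0.09 to -0.69, while the glucose-repressed median did not rise (0.47, 0.45 and 0.30). The genes at the middle of the glucose-repressed class, which set its median, were PCK1 (0.70) and PYK2 (0.23) in mot1-14 and MLS1 (0.49) and PCK1 (0.40) in TBP-Y185C. In TBP-Y185C the excess was 0.34 with saturated spots left out and 0.92 with a normexp offset of 0.

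Stricter rules called fewer of the 32 genes. Deposited p-values under 0.01 on both arrays with the same sign, which 26.8%, 36.3% and 25.2% of all genes had in mot1-14, TBP-Y185C and TBP-F207L, called 8, 15 and 18. On each array the smallest p-value over the spots of a gene was used. A test against a change of 1.5-fold called 6, 10 and 11, against 10.6%, 16.8% and 15.2% of all genes.

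The size of the fall in the major class depended on how arrays were scaled. With the median of each array set to 0 in place of the intensity-dependent loess curve, the major medians were -0.15, -0.41 and -1.07. In TBP-F207L 13 of 14 major genes then fell, 8 of them by at least 2-fold against 3 with loess. The medians over all genes with this scaling were -0.0068, -0.0115 and 1e-04, and the shares of all genes changed were not counted for it. CDC19 was then at -1.98, FBA1 at -1.51, TPI1 at -1.45, GPM1 at -1.44 and PDC1 at -1.08 in TBP-F207L. The deposited log ratios, which the scanner software had normalized, gave 0.00, 0.01 and -0.64. The glucose-repressed medians were 0.45, 0.32 and 0.33 with median centring and 0.59, 0.77 and 0.37 in the deposited log ratios.

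**Figure D3:**
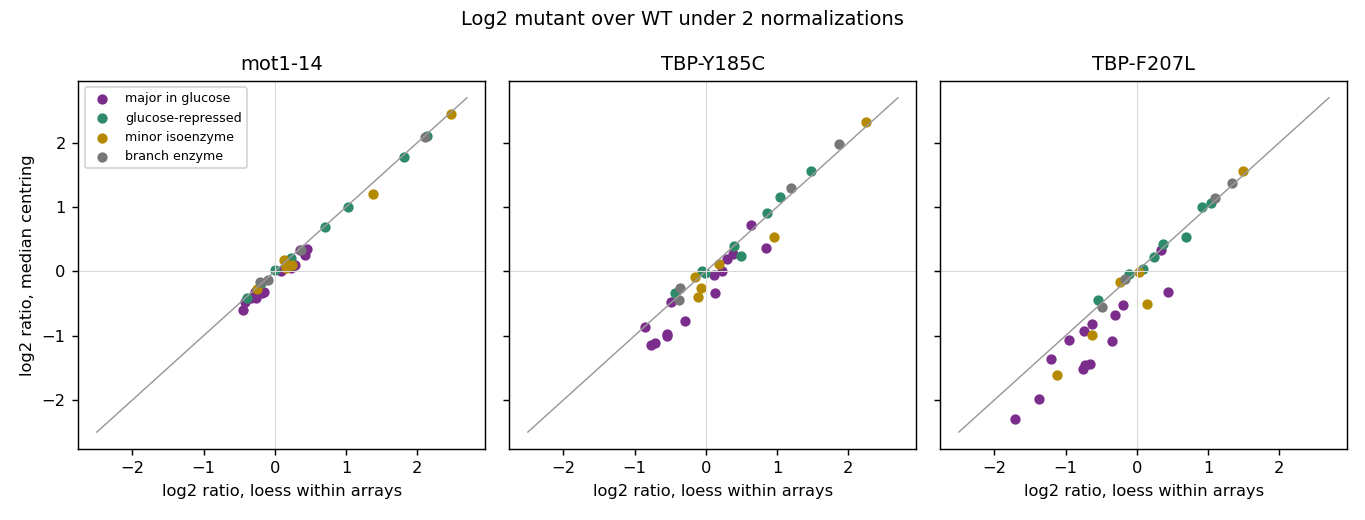
Log2 ratio (mutant over WT) of each of the 32 genes with loess (x axis) and with median centring (y axis), coloured by class; the line marks equal values. Major enzymes lie below the line in TBP-F207L, where their median moved from -0.69 to -1.07.

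The mutants were then compared with each other directly in the same fit. TBP-Y185C was lower than mot1-14 for 18 of the 32 genes and higher for 8, while 6 did not pass, against 49.1% of all genes passing (25.7% higher, 23.4% lower). Without a dye term 9 of the 32 differed instead of 26, the share of all genes not being counted there. HXK1 alone differed by at least 2-fold (-1.10, SE 0.07, adjusted p = 0.000101), against 1.17% of all genes, and 2 genes did so without mot1-14 array 1. The genes higher in TBP-Y185C were led by PYC1 (0.83), PGI1 (0.55), MLS1 (0.50) and PGK1 (0.43), and all of them passed.

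TBP-F207L was lower than mot1-14 for 22 genes and higher for 4, and 6 did not pass, against 57.7% of all genes passing (28.8% higher, 29% lower). The differences of at least 2-fold were 6, all lower in TBP-F207L, against 0.979% of all genes lower by that much (1.48% in either direction). They were ENO1 (-1.37), ENO2 (-1.27), TDH1 (-1.24), HXK1 (-1.23), CDC19 (-1.11) and FBA1 (-1.05), so that 3 of the 6 encode the enolases and pyruvate kinase, the last steps to pyruvate. FBA1 was saturated on both mot1-14 arrays, has no such difference with saturated spots left out, and fell short of 2-fold without mot1-14 array 2 (-0.62) or TBP-F207L array 2 (-0.76). The 4 genes higher in TBP-F207L were PYC1 (0.73), MLS1 (0.69), FBP1 (0.28) and ICL1 (0.27). Among the 14 major genes, 11 were lower in TBP-F207L than in mot1-14 and 0 higher, and PGI1, PGK1 and ACS2 were at 0.02, 0.02 and -0.02.

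Between the bypass strains, 18 genes were lower in TBP-F207L, 1 (PYC2, 0.20) was higher and 13 did not pass, against 37.2% of all genes passing (21.8% lower, 15.4% higher). Without a dye term 6 differed instead of 19, again without a count over all genes. The 3 differences of at least 2-fold were TDH2 (-1.04), ENO1 (-1.01) and TDH3 (-1.01), against 0.16% of all genes lower and 0.0481% higher by that much (0.209% in either direction), and only 1 remained that large without TBP-Y185C array 2. Of the 14 major genes 11 were lower in TBP-F207L, and FBA1, TPI1 and GPM1 did not pass. FBA1 and GPM1 had saturated spots on the arrays of these strains and TPI1 had none there. PGK1 and PDC1, saturated on TBP-Y185C array 1, passed. Of the 8 glucose-repressed genes 2 differed between the bypass strains, GLK1 (-0.44) and ACS1 (-0.49), both lower in TBP-F207L.

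**Figure D4:**
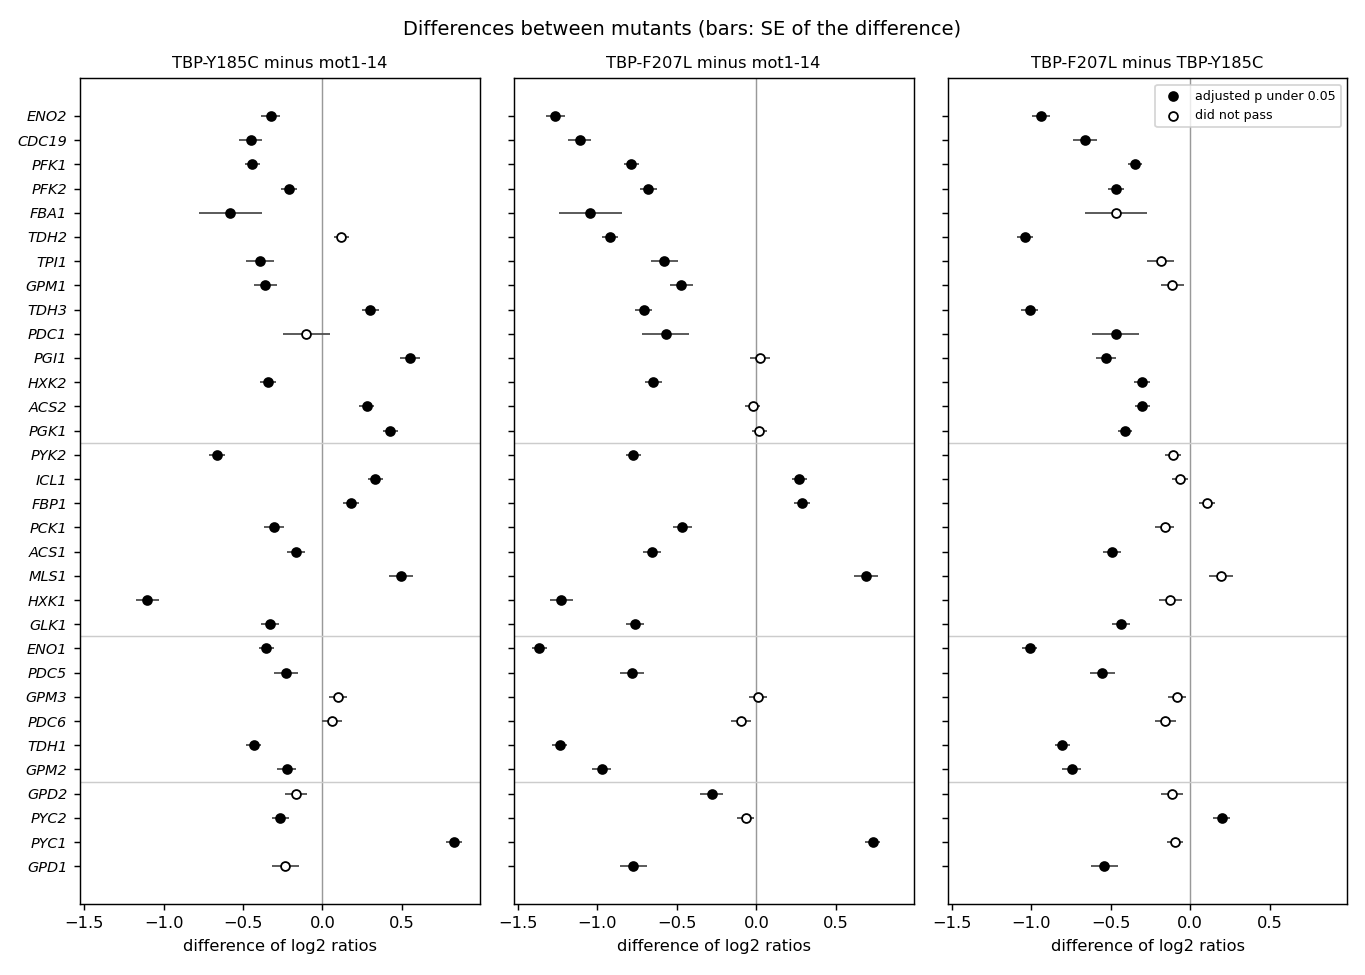
Difference of log2 ratios between mutants (x axis, bars are SE) for the 32 genes (rows, by class); filled circles passed at an adjusted p under 0.05 in limma and open circles did not. In the panel of TBP-F207L minus TBP-Y185C all 14 major genes lie left of 0, and 11 of them passed.

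Several small changes against WT lost their call when an array was left out, some of them with little change in size. Without mot1-14 array 1 this held in mot1-14 for GPM1 (-0.06), CDC19 (-0.23), PDC6 (0.16), FBP1 (-0.16) and GPD2 (-0.14), and without mot1-14 array 2 for TDH2 (0.13), PDC5 (0.02) and PDC6 (0.10). In TBP-Y185C it held without either array for HXK2 (0.16 and 0.06), GPM3 (-0.18 and -0.13) and ENO1 (-0.08 and -0.14), and without array 2 for PGI1 (0.15) and PDC6 (0.12). In TBP-F207L the call was lost for TDH1 without array 1 (0.13) and for PDC1 (-0.15) and ICL1 (-0.08) without array 2, and FBP1 (0.08 to 0.11) lost it whichever of the 6 arrays was left out. No change of at least 2-fold against WT lost its call when an array was left out.

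Genes that control or surround these enzymes were read from lists of known roles, to be set beside the shares of all genes tested: 72.1%, 79.7% and 79% passed in mot1-14, TBP-Y185C and TBP-F207L, of which 37.2%, 41% and 40.2% rose and 34.9%, 38.8% and 38.8% fell. A list of 8 regulators held factors that bind glycolytic promoters together with GAL80 and the phosphate regulator PHO4. Of these 0 rose in any mutant, and 7, 6 and 5 fell in mot1-14, TBP-Y185C and TBP-F207L. RAP1, which binds the promoters of many glycolytic and ribosomal protein genes, fell by 0.87, 1.18 and 0.79 on the log2 scale. The general factor REB1 was at -0.51, -0.63 and -0.46, and all 3 values passed. GAL80, whose product restrains the galactose activator Gal4, fell by 0.38, 0.83 and 1.08. GCR1 fell in each mutant (-0.28, -0.31 and -0.33). TYE7 fell in mot1-14 and TBP-F207L (-0.47 and -0.41) and did not pass in TBP-Y185C (0.095). GCR2 fell slightly in mot1-14 (-0.13) and did not pass in the bypass strains.

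Among 20 genes of glucose repression and derepression, a list that includes HXK2, 6 rose and 8 fell in mot1-14, 6 rose and 9 fell in TBP-Y185C, and 6 rose and 10 fell in TBP-F207L. These 14, 15 and 16 of 20 are close to the 72.1%, 79.7% and 79% of all genes that passed. The largest rises were of NRG1, a repressor of glucose-repressed genes, at 0.84, 1.23 and 1.04, and of SIP2, a beta subunit of the Snf1 kinase, at 0.59, 0.98 and 0.99. SNF1, the catalytic subunit of that kinase, fell by 0.47, 0.66 and 0.45 on the log2 scale. NRG2, related to NRG1, was at 0.48, 0.58 and 0.57. CAT8 and SIP4, activators of gluconeogenic genes, stayed between -0.17 and 0.05, though the small CAT8 falls in mot1-14 and TBP-Y185C (-0.12 and -0.17) passed. Other regulators on the list moved more. ADR1 rose in each mutant (0.20, 0.24 and 0.49). RDS2 was at -0.11, -0.41 and -0.28, and its falls in the bypass strains passed. ERT1 was at -0.03, -0.27 and -0.07 and passed in TBP-Y185C alone.

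Of 5 genes for fructose 2,6-bisphosphate metabolism and hexokinase-like proteins, 4 rose and 0 fell in each mutant, where 37.2%, 41% and 40.2% of all genes rose. Fructose 2,6-bisphosphate activates phosphofructokinase and inhibits fructose-1,6-bisphosphatase. PFK26, which makes it, was at 0.95, 1.43 and 1.37, PFK27, with the same role, was at 0.34, 0.46 and 0.11, and FBP26, which breaks it down, was at 0.77, 0.80 and 0.74. EMI2, a paralog of GLK1, was at 1.52, 1.23 and 0.71.

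A list of 16 other genes linked to the glyoxylate cycle and gluconeogenesis rose in 10, 12 and 11 cases and fell in 3, 3 and 4, where 37.2%, 41% and 40.2% of all genes rose and 34.9%, 38.8% and 38.8% fell. AGX1, encoding alanine:glyoxylate aminotransferase, was at 1.64, 1.55 and 1.29, and the mitochondrial malate dehydrogenase gene MDH1 was at 0.94, 0.97 and 1.24. The peroxisomal citrate synthase gene CIT2 fell in mot1-14 (-0.46) and rose in TBP-Y185C (1.19) and TBP-F207L (0.88), as MLS1 also was higher in the bypass strains than in mot1-14. CIT1, the mitochondrial citrate synthase gene, was at 0.90, 0.79 and 0.98.

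Of 10 glycerol genes, 4 rose and 3 fell in mot1-14, 7 rose and 3 fell in TBP-Y185C, and 7 rose and 2 fell in TBP-F207L. The 7 of 10 that passed in mot1-14 are near the 72.1% of all genes, which was 79.7% and 79% in the bypass strains. The glycerol-3-phosphatase genes, which act after GPD1 and GPD2, were split: GPP2, induced by osmotic stress, was at 1.39, 1.35 and 0.87, and GPP1 at -0.55, -0.70 and -1.25. All 6 values passed, with GPP2 on the side of GPD1 and GPP1 on that of GPD2. GCY1, a glycerol dehydrogenase gene, was at 0.74, 1.19 and 1.43, and DAK1, a dihydroxyacetone kinase gene, at 1.00, 0.88 and 0.40.

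On a list of 10 genes for the degradation of gluconeogenic enzymes when glucose returns, 9, 7 and 7 rose and 1, 1 and 2 fell. Of all genes 37.2%, 41% and 40.2% rose and 34.9%, 38.8% and 38.8% fell. UBC8, a ubiquitin-conjugating enzyme of that route, was at 1.02, 1.51 and 1.29, FYV10 at 0.44, 0.75 and 0.78, and VID28, like FYV10 a subunit of the GID ubiquitin ligase, at 0.47, 0.66 and 0.67. PEX22, counted among the rises, encodes a peroxisomal membrane protein and was at 0.87, 1.31 and 1.22. The falls were of VID22 in each mutant (-0.41, -0.52 and -0.43) and of VID24 in TBP-F207L (-0.39). The enolase-related genes ERR1 and ERR2 rose slightly (0.36 and 0.35 in mot1-14, at most 0.20 in the bypass strains) and ERR3 did not pass, values that are uncertain because the 3 genes are near-identical. In mot1-14 ERR1 and ERR2 had no value on array 1, so their estimates there rest on array 2 alone.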

How the data were processed

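The deposited scanner files, made with Agilent Feature Extraction 7.5.1 per the file headers, hold uncorrected mean and background intensity per spot beside processed intensity (background-subtracted, detrended and dye-normalized by that software). Per the file headers, the deposited log10 ratio divides red by green processed signal and carries a p-value for each spot. The authors' deposited series table proved to be log2 of red over green, not turned to mutant over WT and not centred, with column medians of -0.0258, 0.0188, -0.0227, 0.0247, -0.0034 and 0.0203; it served as an alternative.

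With limma 3.58.1 in R 4.3.3, mean signals were background-corrected (normexp, offset 50) and loess-normalized within arrays, 544 control spots having weight 0. Outlier spots were dropped (at most 3.22% of an array's spots), saturated spots kept and spots of a probe averaged. Testing took in the 6234 of 6256 probes that stood well above background in the red or green channel of 2 or more arrays. Log2 ratios were fitted in 1 model of all 6 arrays with a dye intercept and a signed coefficient per mutant (2 residual degrees of freedom, prior 4.81), tested two-sided with Benjamini-Hochberg adjustment over all genes. Symbols followed the RefSeq table of R64, which matched 5756 names and not 500. The number of arrays limits the precision. All 32 enzyme genes are reported; of the other lists, up to 4 genes by size of change among those that passed, the lists' remaining named genes being chosen after their values were seen. The 32 genes, classes and lists were chosen with earlier results of these data known. The procedure was tested on simulated data.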

Additional observations from a re-analysis of the deposited data

Results flagged for a closer look

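Direct comparisons between mutants, each tested in the limma fit (adjusted p under 0.05), pointed to enzyme genes that differed by at least 2-fold or passed against WT in opposite directions. Values are differences of log2 ratios.

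TBP-F207L was lower than mot1-14 by at least 2-fold for HXK1 (-1.23), FBA1 (-1.05), TDH1 (-1.24), ENO2 (-1.27) and CDC19 (-1.11). FBA1 was saturated on both mot1-14 arrays. TBP-F207L passed in the opposite direction to mot1-14 for ENO1 (-1.37, also at least 2-fold), TDH2 (-0.92), PDC5 (-0.78), PYK2 (-0.77), HXK2 (-0.65) and FBP1 (0.28), FBP1 being the one on which TBP-F207L was higher. Some of these rest on small changes against WT whose calls depended on single arrays. Over the settings FBP1 in TBP-F207L ran from 0.04 to 0.13. In mot1-14 PDC5 ran from 0.02 to 0.30 and TDH2 from 0.09 to 0.21.

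TBP-Y185C was lower than mot1-14 by at least 2-fold for HXK1 (-1.10). It passed in the opposite direction to mot1-14 for PYK2 (-0.66), ENO1 (-0.35) and PGI1 (0.55). The TBP-Y185C calls of ENO1 (-0.40 to -0.02 over the settings) and PGI1 (0.01 to 0.29) depended on single arrays.

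The bypass strains passed in opposite directions for TDH2 (-1.04), TDH3 (-1.01), PGI1 (-0.53) and HXK2 (-0.30), each lower in TBP-F207L, and ENO1 (-1.01) fell in both but by at least 2-fold more in TBP-F207L. The small TBP-Y185C changes of PGI1, HXK2 and ENO1 had calls that depended on single arrays, and HXK2 ran there from -0.06 to 0.16 over the settings.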

How the results depend on the processing

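Single values of the 32 genes, over 20 settings and 3639 gene values in all, kept direction and side of the threshold in 3192, lost the call in 355, gained it in 62 and turned sign in 30. The causes were not tested. Shares of all genes were counted only for the main fit, the deposited p-values and the test against 1.5-fold. Counts under the other settings therefore have no background beside them. The count of genes passing at 2-fold in mot1-14 stayed within 5 to 6 over all settings, and the excess of the glucose-repressed over the major median stayed positive in each mutant.

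Without background correction that excess was 0.53 in mot1-14, and with a normexp offset of 0 it was 0.68 in mot1-14 and 0.92 in TBP-Y185C, with 2 genes differing at 2-fold between TBP-Y185C and mot1-14 against 1. The deposited log ratios gave 0.59 and 0.77, 9 genes at 2-fold in TBP-Y185C against 5, and again 2. The series table gave 0.59 and 0.77, 9 and 2, and put MLS1 in mot1-14 at 0.0086.

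Median centring gave an excess of 0.60, 0.73 and 1.40 in the respective mutants, with 8 genes at 2-fold in TBP-Y185C and 14 in TBP-F207L against 8, and 0, 11 and 5 at 2-fold in the direct comparisons of TBP-Y185C with mot1-14, TBP-F207L with mot1-14 and TBP-F207L with TBP-Y185C, against 1, 6 and 3. It turned MLS1 in mot1-14 (0.0263), HXK2, PDC1 and ICL1 in TBP-Y185C (-0.0613, -0.33 and 0.0024), and TDH1, PGK1 and PDC6 in TBP-F207L (-0.51, -0.32 and -0.0133). It also turned the differences from mot1-14 of PDC6 in TBP-Y185C (-0.0725) and of PGI1, PGK1, PYC2 and ACS2 in TBP-F207L (-0.26, -0.57, 0.0231 and 0.0014).

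Without a dye term, which leaves the probes' dye effects in the error, 9 genes differed between TBP-Y185C and mot1-14 against 26, and 6 between the bypass strains against 19. Deposited p-values under 0.01 on both arrays with the same sign, a rule that 26.8%, 36.3% and 25.2% of all genes met, called 8, 15 and 18 of the 32 genes, with 9 at 2-fold in TBP-Y185C and an excess of 0.59 and 0.77. The rule took the smallest p-value over a gene's spots on each array. A test against a 1.5-fold change (limma's treat) called 6, 10 and 11 against WT, where 10.6%, 16.8% and 15.2% of all genes passed, and 1, 7 and 3 in the direct comparisons, where 1.41%, 2.61% and 0.192% passed. With saturated spots left out, chosen after seeing the data as were the next and the fit to genes with values on all arrays, the excess was 0.55 in mot1-14 and 0.34 in TBP-Y185C. With the saturated genes left out of the medians it was 0.72 and 0.34.

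With each array left out in turn, the lone array being assumed to vary like the others, the excess in mot1-14 ran from 0.45 to 0.65, genes at 2-fold between TBP-Y185C and mot1-14 from 1 to 2, and those between the bypass strains from 1 to 3. Values that turned sign ran, in mot1-14, from -0.14 to 0.71 for FBA1, from -0.0855 to 0.53 for PDC1, from -0.30 to 0.0093 for TPI1 and from -0.0951 to 0.0871 for MLS1. FBP1 in TBP-Y185C ran from -0.0663 to 0.0359 and PDC6 in TBP-F207L from -0.0641 to 0.13. Differences from mot1-14 ran, for TBP-Y185C, from -0.41 to 0.21 for PDC1 (0.011 without TBP-Y185C array 2) and from -0.0043 to 0.12 for PDC6. For TBP-F207L they ran from -0.0772 to 0.12 for PGI1 (-0.0058 without TBP-F207L array 2), from -0.0621 to 0.0856 for GPM3 (-0.0391 without TBP-F207L array 1), from -0.0624 to 0.0146 for ACS2 and from -0.19 to 0.0019 for PDC6. Between the bypass strains HXK1 ran from -0.25 to 0.0014 and GPD2 from -0.24 to 0.0077. No paired analysis was possible because array numbers carry only dye orientation.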

Other observations

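Some of the 32 genes sit next to genes of the lists in the R64 gene order. ACS1, the glucose-repressed acetyl-CoA synthetase gene, is adjacent to PEX22: ACS1 was at 1.02, 0.86 and 0.37 in mot1-14, TBP-Y185C and TBP-F207L and PEX22 at 0.87, 1.31 and 1.22, so the order of the mutants differed between the neighbours. GLK1 is adjacent to GID7, a subunit gene of the GID ubiquitin ligase, which was at 0.32, 0.47 and 0.43 against 1.81, 1.48 and 1.05 for GLK1. PDC6, at 0.13, 0.19 and 0.03, is adjacent to the cytosolic catalase gene CTT1, a general stress gene at 0.98, 1.68 and 1.45. These neighbours were looked up after the values were seen, and no test was made of them.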
